A study of Mus musculus with 6 samples.

Results

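The enzymes described here are the cytochromes P450 of the Cyp2, Cyp3 and Cyp4 families, the carboxylesterases (Ces), and the glutathione transferases of the alpha, mu, pi and theta classes (Gst), UDP-glucuronosyltransferases (Ugt) and sulfotransferases (Sult). They were measured by RNA sequencing of kidneys taken from mice on postnatal day 3. Members were all genes with such a symbol, except the vitamin D hydroxylase Cyp2r1, whose mean over the 6 libraries was at least 1 FPKM (fragments per kilobase of transcript, scaled to the mapped fragments of a library). This gave 53 members among the 110 genes of these families that had a value and the 19659 rows with a value in the table. The choice used family names and the mean level over both groups, so levels near 1 FPKM are a description and not a finding. Symbols are not functions: Ugt8a makes the lipid galactosylceramide and is not known for handling drugs.

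The tested genotype was R26NICD2/+Kspcre, called NICD2 here, with 3 libraries, and it was set against 3 wild type libraries of the same age. R26NICD2 places the intracellular domain of Notch2, the part of the receptor that acts on genes once Notch is activated, at the Rosa26 locus in 1 copy. Kspcre is a Cre recombinase driven by the promoter of Ksp-cadherin, which is active in tubule epithelium of the kidney. Which tubule cells carry the active allele was not measured here, and a whole kidney also holds cells without it. The title of the series names the question as the effect of Notch2 activation on cyst growth. The labels do not say that the 3 libraries of a group came from separate animals, so p-values measure the spread between these libraries, which may in part be technical.

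Drug-metabolising enzymes work in steps. Phase I enzymes, the P450s and esterases, oxidise or split a compound, and phase II enzymes join glutathione, glucuronic acid or sulfate to it so that it can be excreted. In the kidney most of this work is done in the proximal tubule, and several P450s there also act on the body's own fatty acids. Nuclear receptors such as CAR and PXR, the aryl hydrocarbon receptor AhR and the stress factor NRF2 are the known switches of these genes.

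Each library held an estimated 15750000 to 17050000 fragments, read off the spacing of its lowest values. The row of the human Notch2 sequence held 75.44, 79.59 and 60.17 FPKM in the NICD2 libraries, against 0, 0.03 and 0.03 FPKM in the wild type libraries. Transcripts of the Y chromosome (Uty, Kdm5d, Ddx3y and Eif2s3y) were listed at 0 in NICD2 replicate 3 and present in the other 5 libraries. Adrenal cortex genes, 11 markers summed, held 27.3, 193 and 194 FPKM in NICD2 replicates 1, 2 and 3, against 194, 193 and 38.8 FPKM in wild type replicates 1, 2 and 3, so 1 library of each group was nearly free of adrenal RNA. Liver is rich in the same enzymes. Of 16 hepatocyte markers 14 had a value and summed to 149, 111 and 143 FPKM in NICD2 and 157, 142 and 137 FPKM in wild type. Most of this came from Ttr (means of 67.2 FPKM in NICD2 and 78.9 FPKM in wild type) and Serpina1a (34.6 and 36.4 FPKM). Alb stayed at or below 0.25 FPKM in every library, and 1 of the 7 tested markers rose. Whether liver RNA was present was not tested. All 25 markers of kidney proximal tubule were detected in every library.

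The carboxylesterases Ces1d, Ces1e and Ces5a, 3 of the 7 in 1 stretch of chromosome 8, and the glutathione transferase Gsta3 rose in NICD2 kidneys, while most of the other enzymes were not called. Of the 53 members, all of which could be tested, 7 rose and 3 fell at an adjusted p under 0.05 (limma on log2(FPKM + 1), Benjamini-Hochberg over 13765 genes). The 10 called make up 18.9% of the members, where 8.79% of all genes tested were called. By direction, 13.2% of the members were higher and 5.66% lower, against 4.93% and 3.86% of all genes tested. With a library left out the count lower was 1 (without any one NICD2 library) or 2 (without any one wild type library). These counts are a description: 5 members had a wild type mean under 1 FPKM and reached the level minimum through their NICD2 values. Of the 7 that rose, 3 were among these (Ces1d, Ces5a and Cyp2j13), so their place among the members rested on the group where they are high. Among the 48 members with both group means at or above 1 FPKM, 4 rose and 3 fell. The median fold change was -0.05 over the members and -0.01 over all genes tested; fold changes here are NICD2 minus wild type of log2(FPKM + 1), on which genes of low level change less than their ratio. Groups did not overlap for 19 members, or 35.8%, against 30.5% of all genes tested; NICD2 was the higher in 11 and the lower in 8, where 15.0% and 15.5% of all genes were so placed. The median size of the fold change was 0.21 for the members and 0.11 for all genes, and the median SD within a group was also higher for the members, at 0.18 in NICD2 and 0.13 in wild type, against 0.09 in NICD2 and 0.10 in wild type for all genes. In whole kidneys, fewer cells of a type and less RNA per cell cannot be told apart.

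**Figure D1:**
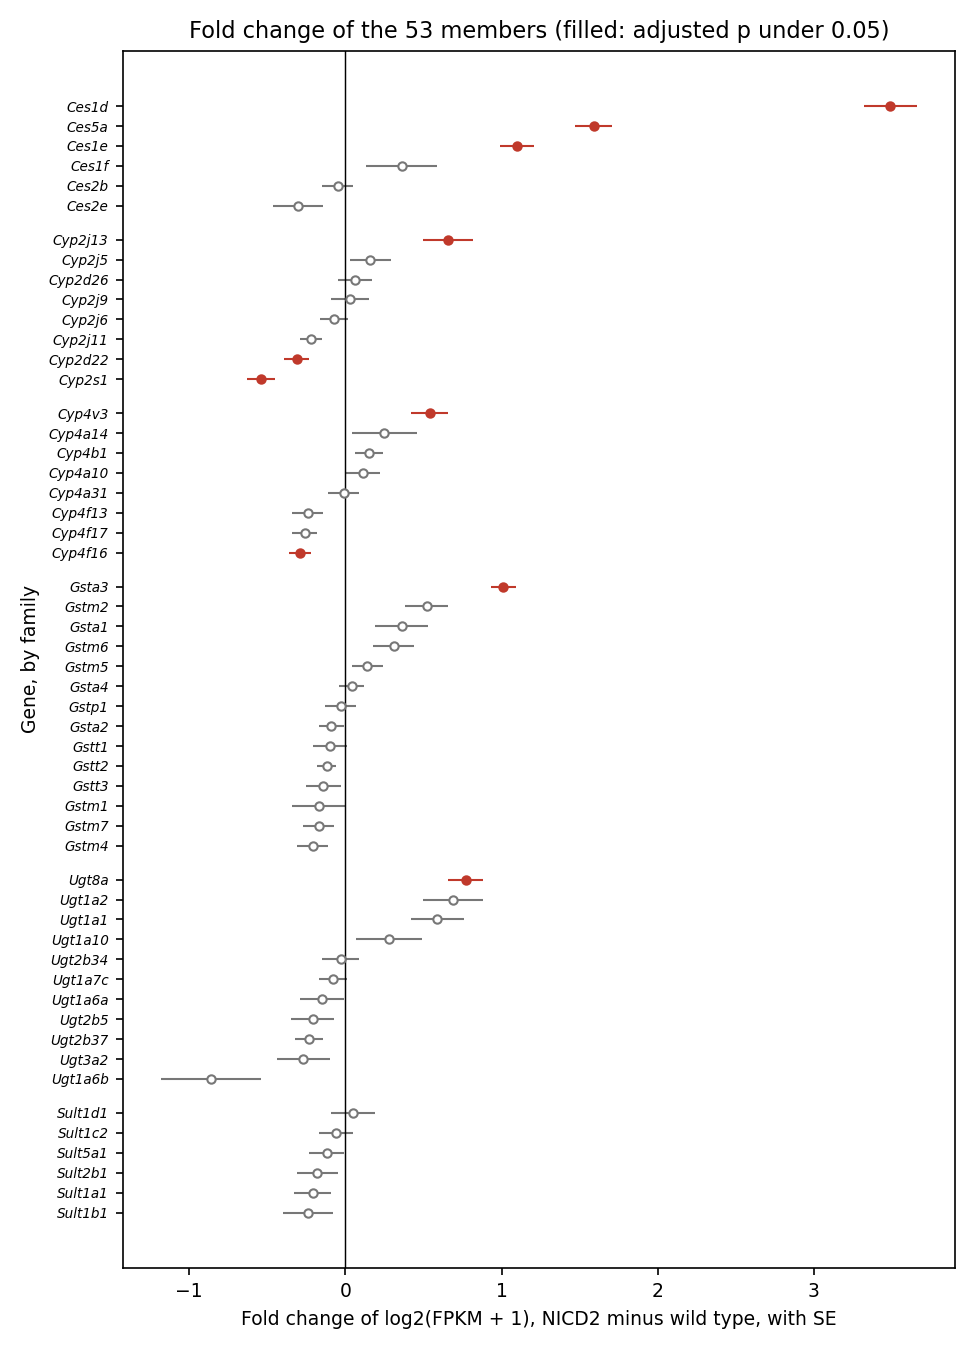
Fold change of log2(FPKM + 1), NICD2 minus wild type, with its SE for each of the 53 members, grouped by family; filled points were called at an adjusted p under 0.05. The Ces genes reach the highest value, 3.49 for Ces1d, and most other points lie close to 0.

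The largest fold changes among the members were those of the esterases Ces1d, Ces5a and Ces1e. Of the 6 Ces members these 3 rose and 3 were not called, where 4.93% of all genes tested were called higher. Ces1d and Ces5a reached the level minimum through their NICD2 values. Ces1d, a carboxylesterase of the endoplasmic reticulum that also hydrolyses triglycerides (gene 104158, chromosome 8, 93166072 to 93197804 on GRCm38, minus strand), had 23.72, 14.85 and 18.48 FPKM in the NICD2 libraries, against 1.02, 0.49 and 0.77 FPKM in the wild type libraries. Every NICD2 value was far above every wild type value. The ratio of the means was 25.0, with 19 ± 4.46 FPKM in NICD2 and 0.76 ± 0.265 FPKM in wild type (SD, n = 3 each), and limma gave a log2 fold change of 3.49 ± 0.17 (SE, adjusted p = 1.30e-05). Ces1e, which in the mouse holds beta-glucuronidase in the endoplasmic reticulum, had 8.51, 6.77 and 7.09 FPKM in NICD2 and 2.52, 2.98 and 3.31 FPKM in wild type. Its groups did not overlap, with a log2 fold change of 1.10 ± 0.11 (adjusted p = 5.72e-04).

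Ces5a, known in the cat as the urinary esterase cauxin, had 2.37, 2.19 and 1.79 FPKM in the NICD2 libraries, against 0.07, 0.03 and 0 FPKM in the wild type libraries. The wild type values stand for about 2, 1 and 0 fragments and the NICD2 values for about 84, 75 and 64, by the estimated depth. The log2 fold change was 1.59 ± 0.12 (limma, adjusted p = 1.53e-04), and no ratio of means is given against so few fragments. Ces1f was less clear, at 3.69, 1.54 and 3.45 FPKM in NICD2 and 1.49, 2.06 and 2.26 FPKM in wild type. NICD2 replicate 2 lay within the wild type range, and the gene was not called (adjusted p = 0.362), although it was without that replicate.

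These genes stand side by side. Ces1c, Ces1d, Ces1e, Ces1f, Ces1g, Ces1h and Ces5a lie in that order, all on the minus strand, and Ces1d to Ces5a span 93166072 to 93535879 of chromosome 8. Ces1g, too low to be tested, held 0.41, 0.31 and 0.52 FPKM in NICD2 libraries and 0.12, 0.11 and 0.14 FPKM in wild type libraries. Ces1h held 0.34, 0.17 and 0.13 FPKM in NICD2 and was listed at 0 in all wild type libraries. Ces1c stayed at or below 0.07 FPKM throughout. These low neighbours were added because of their position, after their values were seen. The 2 tested genes of the flank, the matrix protease Mmp2 and the phospholipid enzyme Lpcat2, were not called, with log2 fold changes of -0.13 ± 0.06 and 0.06 ± 0.12 (adjusted p = 0.242 and 0.821).

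**Figure D2:**
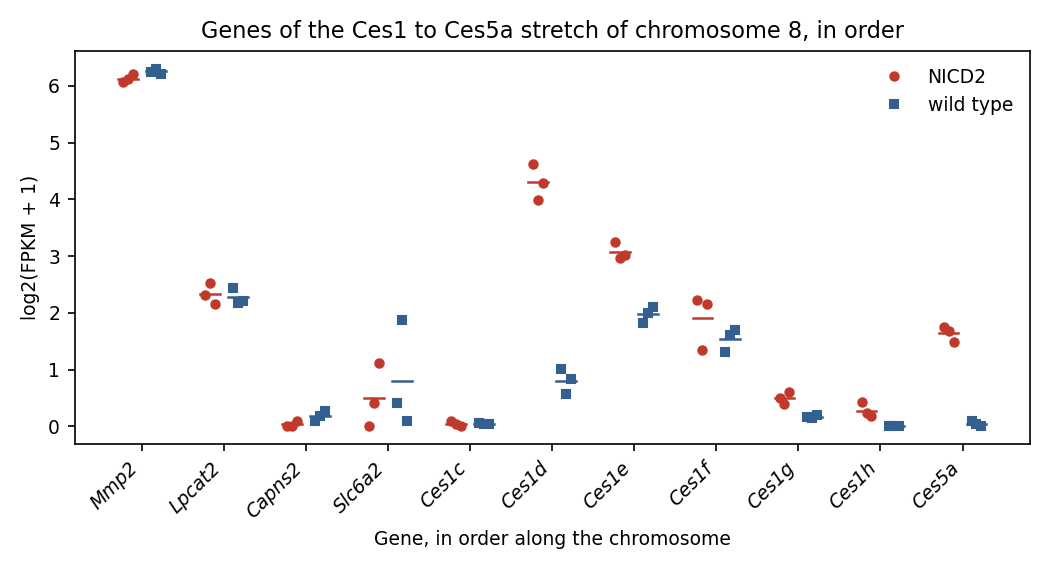
Level of each gene, as log2(FPKM + 1), in every library (points, with the group mean as a line) for the genes in order from Mmp2 to Ces5a. Ces1d, Ces1e and Ces5a are the genes whose NICD2 points were called above their wild type points; Mmp2 and Lpcat2 were not called.

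The second esterase group, Ces2, lies elsewhere on the same chromosome and was not called. Ces2b had 2.32 ± 0.233 FPKM in NICD2 and 2.43 ± 0.201 FPKM in wild type, and Ces2e had 1.21 ± 0.468 FPKM in NICD2 and 1.69 ± 0.117 FPKM in wild type (adjusted p = 0.812 and 0.292). Ces2c, just under the minimum with a mean of 0.828 FPKM, had 1.09, 0.85 and 1.47 FPKM in NICD2 and 0.47, 0.52 and 0.57 FPKM in wild type. The other genes just below the minimum were Ugt2b38 and Gstp2, and the members just above it were Gsta1, Ces5a and Sult2b1, with means of 1.05, 1.08 and 1.16 FPKM.

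Start regions are shown for the members whose call held in all 11 alternative fits, except Ces1d, which has no entry, because they carry the firmest calls. Each is a RefSeq window (GRCm38.p6) of 250 bases before to 50 after the start site: Ces5a (chr8:93535791-93536090, minus strand), Ces1e (chr8:93229570-93229869, minus strand), the riser Gsta3 (chr1:21240335-21240634, plus strand), the riser Ugt8a (chr3:125938603-125938902, minus strand) and the faller Cyp2s1 (chr7:25816476-25816775, minus strand). Capitals mark matches, on either strand, to TGGGAA, the core letters bound by the Notch partner RBPJ, to TGACNNNGC, those bound by NRF2, and to GCGTG, those bound by AhR.
Ces5a: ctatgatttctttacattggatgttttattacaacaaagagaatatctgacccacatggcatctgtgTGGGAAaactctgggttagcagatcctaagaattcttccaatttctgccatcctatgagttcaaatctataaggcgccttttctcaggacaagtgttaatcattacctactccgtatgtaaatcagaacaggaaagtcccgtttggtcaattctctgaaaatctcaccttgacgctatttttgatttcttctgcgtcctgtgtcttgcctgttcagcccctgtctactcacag
Ces1e: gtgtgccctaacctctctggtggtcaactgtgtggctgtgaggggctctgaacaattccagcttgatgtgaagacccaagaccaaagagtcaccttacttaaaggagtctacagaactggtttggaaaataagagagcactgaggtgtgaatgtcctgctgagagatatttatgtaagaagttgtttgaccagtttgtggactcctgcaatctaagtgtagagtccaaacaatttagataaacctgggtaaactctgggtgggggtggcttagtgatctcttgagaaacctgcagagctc
Gsta3: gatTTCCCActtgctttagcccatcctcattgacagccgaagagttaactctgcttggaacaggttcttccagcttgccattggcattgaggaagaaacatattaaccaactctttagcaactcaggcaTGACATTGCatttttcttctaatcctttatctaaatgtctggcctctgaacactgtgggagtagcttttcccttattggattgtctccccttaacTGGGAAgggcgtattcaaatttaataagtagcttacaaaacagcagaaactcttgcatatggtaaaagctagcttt
Ugt8a: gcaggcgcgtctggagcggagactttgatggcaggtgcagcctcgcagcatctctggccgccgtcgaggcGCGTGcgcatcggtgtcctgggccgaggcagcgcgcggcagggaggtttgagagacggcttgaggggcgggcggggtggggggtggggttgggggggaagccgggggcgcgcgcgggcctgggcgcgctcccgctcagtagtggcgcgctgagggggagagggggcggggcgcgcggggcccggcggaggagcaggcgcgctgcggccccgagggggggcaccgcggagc
Cyp2s1: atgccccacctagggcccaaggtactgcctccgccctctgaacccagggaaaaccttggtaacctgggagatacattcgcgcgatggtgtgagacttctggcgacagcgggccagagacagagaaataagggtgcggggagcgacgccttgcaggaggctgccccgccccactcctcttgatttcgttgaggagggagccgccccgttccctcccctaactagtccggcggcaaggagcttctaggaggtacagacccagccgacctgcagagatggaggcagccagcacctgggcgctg
Gsta3 held 2 matches to TGGGAA and 1 to TGACNNNGC, Ces5a held 1 to TGGGAA, and these windows of Ces1e and Cyp2s1 held no match to any of the 3. Ugt8a held 1 match to GCGTG and none to the others. Of the 8 called members with a window, 4 held TGGGAA, 4 held GCGTG and 1 held TGACNNNGC. TGGGAA was found in 14 of the 41 members with a window (34.1%) and in 28.3% of 27025 genes. GCGTG was found in 31.7% of those members and 35.2% of genes, and TGACNNNGC in 4 of those members and 3781 of the genes. The matches to the different motifs do not overlap in the printed windows, and a match is a description of letters only.

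Among the P450s, which insert oxygen into their substrates, 2 members rose and 3 fell. Of the 8 Cyp2 members 1 rose and 2 fell, and of the 8 Cyp4 members 1 rose and 1 fell. For comparison, 4.93% of all genes tested were called higher and 3.86% lower. The P450 calls other than that of Cyp2s1 were each lost in 7 or 8 of 11 alternative fits. The 8 Cyp2 members had a median fold change of -0.02 and the 8 Cyp4 members 0.05. The single Cyp3 gene with a value had a mean of 0.205 FPKM and was no member.

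Cyp2s1, a P450 of epithelia outside the liver (chromosome 7, 25802476 to 25816530), was the clearest fall. It had 13.57, 17.04 and 14.04 FPKM in NICD2 and 22.57, 22.85 and 20.72 FPKM in wild type. All NICD2 libraries were below all wild type libraries, with a log2 fold change of -0.54 ± 0.09 (limma, adjusted p = 0.0084). Cyp2d22, a mouse gene of the same subfamily as human CYP2D6, had 9.54, 9.37 and 9.48 FPKM in NICD2 and 13.04, 12.22 and 10.72 FPKM in wild type. The NICD2 values were close together and all lower, but the call was marginal (log2 fold change -0.31 ± 0.08, adjusted p = 0.0496) and was lost in 8 of 11 alternative fits, with adjusted p up to 0.157. Its neighbour in the subfamily, Cyp2d26, one of the 2 most abundant Cyp2 members, was not called, at 35 ± 5.93 FPKM in NICD2 and 33.3 ± 1.75 FPKM in wild type (adjusted p = 0.792).

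Enzymes of the Cyp2j subfamily oxidise arachidonic acid. Cyp2j13 rose, with 2.25, 1.18 and 1.83 FPKM in NICD2 and 0.58, 0.69 and 0.9 FPKM in wild type. The groups did not overlap (log2 fold change 0.66 ± 0.16, limma adjusted p = 0.0409), but the call was lost in 7 of 11 alternative fits, with adjusted p up to 0.126. Cyp2j5, the most abundant of the subfamily here, had 28.8 ± 3.98 FPKM in NICD2 and 25.7 ± 3.96 FPKM in wild type and was not called (adjusted p = 0.479). Summed over its 5 members the subfamily held 74.4, 65.4 and 77 FPKM in NICD2 libraries and 63.7, 76.1 and 77.1 FPKM in wild type libraries, with the same mean of 72.3 FPKM in both groups.

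The Cyp4 enzymes hydroxylate the end of fatty acids. Cyp4v3, the mouse counterpart of human CYP4V2, a gene of an inherited retinal disease, had 4.48, 3.09 and 3.69 FPKM in NICD2 and 2.07, 2.28 and 2.41 FPKM in wild type. Each NICD2 value exceeded each wild type value (log2 fold change 0.54 ± 0.12, limma adjusted p = 0.0281). Cyp4f16, of the subfamily that inactivates leukotrienes, fell: it had 7.18, 7.69 and 7.75 FPKM in NICD2 and 9.72, 9.51 and 9.16 FPKM in wild type (log2 fold change -0.29 ± 0.07, adjusted p = 0.0329). The call of Cyp4v3 was lost in 7 of 11 alternative fits (adjusted p up to 0.0896) and that of Cyp4f16 in 8 (adjusted p up to 0.119). The other Cyp4f members, Cyp4f17 and Cyp4f13, had log2 fold changes of -0.26 and -0.24 and were not called (adjusted p = 0.0759 and 0.181).

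The Cyp4a genes, known targets of the fatty acid receptor PPAR-alpha, were not called. Cyp4a10, the most abundant P450 among the members by mean FPKM, had 45.75, 36.18 and 50.94 FPKM in NICD2 and 41, 41.97 and 38.42 FPKM in wild type (adjusted p = 0.583). Cyp4a14 had 36.45, 22.65 and 41.65 FPKM in NICD2 and 24.65, 33.47 and 24.58 FPKM in wild type (adjusted p = 0.517). In both genes NICD2 replicate 2 was the lowest library and NICD2 replicate 3 the highest. Cyp4a31 had the same mean in both groups, 33.1 FPKM.

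**Figure D3:**
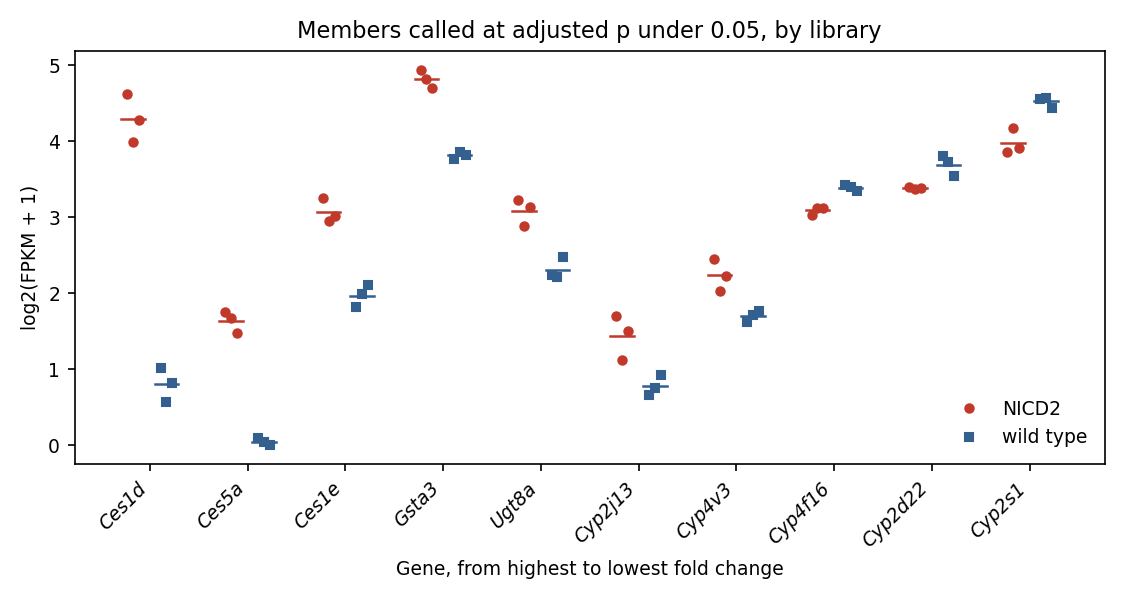
Level of the 10 called members, as log2(FPKM + 1), in every library (points, with the group mean as a line), ordered from the highest to the lowest fold change. In each of the 10 the NICD2 and wild type points do not overlap, with the widest gap in Ces1d and narrow gaps in Cyp4f16 and Cyp2d22.

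The glutathione transferases, which join glutathione to reactive compounds, were the most abundant family. Of their 14 members 1 rose, where 4.93% of all genes tested were called higher. Gsta3, an alpha-class enzyme that in the mouse detoxifies aflatoxin epoxide (chromosome 1, 21240585 to 21265575), had 29.81, 27.19 and 25.09 FPKM in NICD2 and 12.67, 13.52 and 13.12 FPKM in wild type. The lowest NICD2 library was well above the highest wild type library. Means were 27.4 ± 2.36 FPKM in NICD2 and 13.1 ± 0.425 FPKM in wild type (SD, n = 3 each), a ratio of 2.09, and limma gave a log2 fold change of 1.01 ± 0.08 (adjusted p = 1.29e-04). Shared sequence was low for Gsta3: 0.4% of the 50-base stretches of its longest GENCODE transcript occur in transcripts of another gene. By the same count 14 of the 53 members shared over 20%. The P450s among them were Cyp4a10 (30.5%), Cyp4a31 (21.8%) and the called Cyp4f16 (26.5%), so their separate values are less certain.

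The other alpha-class members stand together on chromosome 9 and were not called. Gsta4, which acts on products of lipid peroxidation, had 89.4 ± 7.19 FPKM in NICD2 and 86.6 ± 5.94 FPKM in wild type, and Gsta2 had 80.4 ± 5.89 FPKM in NICD2 and 85.5 ± 6.67 FPKM in wild type (adjusted p = 0.777 and 0.552). Gsta1, near the level minimum, had 1.31 ± 0.387 FPKM in NICD2 and 0.79 ± 0.265 FPKM in wild type. It shares 89.7% of such stretches with other genes and Gsta2 shares 64.2%, so the values of both are uncertain.

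All 6 members above 50 FPKM were glutathione transferases, and limma called none of them (1 had an unadjusted p under 0.05). The mu-class gene Gstm2 came closest, with 146.62, 145.4 and 109 FPKM in NICD2 and 109.29, 82.06 and 86.17 FPKM in wild type. NICD2 replicate 3 lay just under wild type replicate 1, and the log2 fold change was 0.52 ± 0.14 (limma, adjusted p = 0.0536); 5 of 11 alternative fits called it, with adjusted p from 0.0164 to 0.174. Gstp1, the pi-class enzyme, had 109 ± 6.17 FPKM in NICD2 and 112 ± 15.4 FPKM in wild type (adjusted p = 0.873), and 62.3% of its stretches occur in Gstp2. Wild type replicate 1 held the highest Gstm1 value, 145.87 FPKM, against 96.54 and 89.26 FPKM in the other wild type libraries and 99.71, 101.94 and 86.29 FPKM in the NICD2 libraries. The 3 theta-class members, Gstt1, Gstt2 and Gstt3, had log2 fold changes of -0.10, -0.12 and -0.14, none of them called.

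The Ugt genes, named for enzymes that attach glucuronic acid, had 1 of 11 members higher, where 4.93% of all genes tested were called higher. That member is not known for handling drugs. Ugt8a makes galactosylceramide, a lipid of myelin and of kidney tubules. It had 8.34, 6.38 and 7.76 FPKM in NICD2 and 3.72, 3.65 and 4.56 FPKM in wild type. All NICD2 libraries were above all wild type libraries, with a ratio of means of 1.88 and a log2 fold change of 0.77 ± 0.11 (limma, adjusted p = 0.00443).

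The Ugt1a genes share their last exons and differ in the first, which sets what each enzyme binds. This sharing makes their separate values uncertain: 38.9% to 80.7% of the 50-base stretches of the 6 members occur in another gene. Ugt1a2 had 41.16, 38.03 and 42.68 FPKM in NICD2 and 17.34, 32.88 and 26.49 FPKM in wild type. The groups did not overlap, but the gene was not called (log2 fold change 0.69 ± 0.19, adjusted p = 0.059), except without wild type replicate 1 or wild type replicate 2. Ugt1a6b, for small phenols, ran the other way at 9.78, 6.01 and 9.12 FPKM in NICD2 and 27.04, 9.34 and 14.9 FPKM in wild type. Its values overlapped and it was not called (log2 fold change -0.86 ± 0.32, adjusted p = 0.136), but it was without wild type replicate 2 (adjusted p = 0.0487) and with the replicate number as a block (adjusted p = 0.0271).

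Summed over the 6 members, Ugt1a held 68.3, 61.2 and 73.5 FPKM in NICD2 libraries and 59.1, 61.9 and 58.7 FPKM in wild type libraries. Ugt1a2 made up 60.2%, 62.1% and 58.1% of this sum in NICD2 and 29.3%, 53.1% and 45.1% in wild type. Ugt1a6b made up 14.3%, 9.8% and 12.4% in NICD2 and 45.8%, 15.1% and 25.4% in wild type. The shares were alike among the NICD2 libraries and spread widely among the wild type libraries, where replicate 1 stood apart. Ugt1a1, which conjugates bilirubin, had 2.08, 1.21 and 1.69 FPKM in NICD2 and 1.13, 0.68 and 0.5 FPKM in wild type and was not called (adjusted p = 0.0717).

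**Figure D4:**
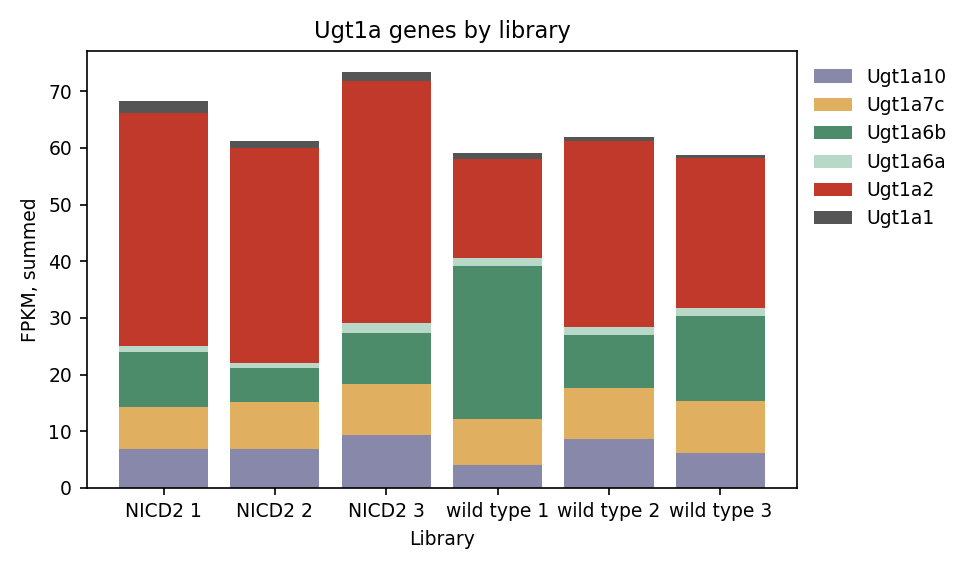
FPKM of the 6 Ugt1a members stacked by library, in their order along chromosome 1, with NICD2 libraries on the left and wild type libraries on the right. The stack totals run from 61.2 to 73.5 FPKM in NICD2 and from 58.7 to 61.9 FPKM in wild type, and Ugt1a6b takes its largest part in wild type replicate 1.

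None of the 3 Ugt2b members was called by limma, and 1 had an unadjusted p under 0.05, with log2 fold changes of -0.23 for Ugt2b37, -0.21 for Ugt2b5 and -0.03 for Ugt2b34 (smallest adjusted p = 0.175). The sulfotransferases, which transfer sulfate from the donor PAPS, had none of 6 members called by limma and none at an unadjusted p under 0.05, with 1 positive and 5 negative fold changes. Sult1d1, which acts on catecholamines, was the most abundant, with 36.47, 25.02 and 31.93 FPKM in NICD2 and 25.8, 30.99 and 32.51 FPKM in wild type (adjusted p = 0.852). Sult1a1, for phenols, had 6.81, 7.97 and 8.27 FPKM in NICD2 and 10.75, 7.68 and 8.83 FPKM in wild type (adjusted p = 0.321).

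Libraries differed within a group across many members at once. NICD2 replicate 2 was the lowest NICD2 library for 33 of the 53 members (62.3%), against 30.8% of all genes tested. That replicate was also the lowest of its group for 14 of 25 proximal tubule markers. So was wild type replicate 1. It was the highest of its group for 24 of the 53 members (45.3%) and the lowest for 20 (37.7%). These shares were near those of all genes tested, 40.2% and 36.0%. The summed level of the proximal tubule markers was 1996, 1927 and 2261 FPKM in NICD2 libraries and 2780, 2698 and 2593 FPKM in wild type libraries. Of the 25, 5 were lower, none higher and 20 not called, with a median fold change of -0.11. The most abundant, Kap and Slc34a1, were among the 5 and weigh most in the sum. Their means were 709 and 245 FPKM in NICD2 and 1090 and 378 FPKM in wild type. The part of the proximal tubule markers in the members' values was not tested. Intercalated-cell markers, of another tubule cell, were lower for 11 of 13. They summed to 150, 138 and 142 FPKM in NICD2 and 286, 286 and 291 FPKM in wild type. Of 12 thick ascending limb markers 2 were higher and 4 lower, and of 12 principal cell markers 3 were higher and 5 lower. Among all genes tested, 4.93% were called higher and 3.86% lower. The part of these other tubule markers was not tested either.

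The regulators of these enzymes were not called. Of 18 listed, 16 could be tested and none passed limma's adjusted threshold, with 6 at an unadjusted p under 0.05, where 25.1% of all genes were. Nfe2l2, which encodes NRF2, had 46.96, 39.42 and 40.28 FPKM in NICD2 and 32.98, 34.61 and 36.81 FPKM in wild type, and Nr1i3, which encodes CAR, had 0.58, 0.99 and 1.19 FPKM in NICD2 and 2.17, 1.69 and 1.39 FPKM in wild type. The groups did not overlap for either gene, yet neither passed limma's threshold (log2 fold changes 0.27 ± 0.08 and -0.52 ± 0.16, adjusted p = 0.0794 and 0.082). The bile acid receptor Nr1h4 was not called (adjusted p = 0.0959).

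Of 16 tested NRF2 targets, genes of glutathione and redox supply, 4 rose and none fell, with a median fold change of 0.16 (all genes: -0.01). Over all genes tested, 4.93% were called higher and 3.86% lower. The count higher was 1 without wild type replicate 2, NICD2 replicate 1 or NICD2 replicate 2, and 2 without wild type replicate 3. Tkt, transketolase of the pentose phosphate pathway, had 139.8, 132.66 and 121.95 FPKM in NICD2 and 83.92, 81.73 and 81.93 FPKM in wild type (log2 fold change 0.66 ± 0.07, adjusted p = 5.72e-04). Gclc, the catalytic subunit that starts glutathione synthesis, had 49.21, 45.6 and 41.53 FPKM in NICD2 and 32.72, 33.84 and 36.27 FPKM in wild type (adjusted p = 0.0161). The thioredoxin reductase Txnrd1 and the sulfiredoxin Srxn1 rose by 0.29 and 0.37 on the log2 scale (adjusted p = 0.0218 and 0.0281). Gclc, Txnrd1 and Srxn1 lost their calls in 3, 4 and 6 of 11 alternative fits (adjusted p up to 0.0674, 0.0734 and 0.0808), and Nqo1, a standard NRF2 target, was not called at 8.35 FPKM in NICD2 and 7.61 FPKM in wild type (adjusted p = 0.548). No AhR target of the 3 tested was called (limma; 1 had an unadjusted p under 0.05), Cyp1b1 having 20.16, 18.5 and 18.02 FPKM in NICD2 and 15.47, 15.19 and 16.55 FPKM in wild type (adjusted p = 0.0617).

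Other phase I enzymes had 1 of 29 tested genes higher and 3 lower, where 4.93% and 3.86% of all genes tested were so called. The flavin monooxygenase Fmo5 had 1.77, 1.67 and 2.17 FPKM in NICD2 and 6.8, 4.97 and 4.58 FPKM in wild type (log2 fold change -1.16 ± 0.14, limma adjusted p = 0.00149). The aldehyde dehydrogenases Aldh1a7 and Aldh1a1, which resemble each other closely, fell by 0.83 and 0.76 on the log2 scale (adjusted p = 0.00898 and 0.0413), and the mitochondrial Aldh2 rose by 0.31 (adjusted p = 0.0176). Aldh1a1 lost its call in 6 and Aldh2 in 4 of 11 alternative fits (adjusted p up to 0.112 and 0.0638).

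Among 28 other conjugation and cosubstrate genes, 2 rose and 2 fell, against 4.93% higher and 3.86% lower over all genes tested. Mgst1, the microsomal glutathione transferase, had 165.26, 130.88 and 142.89 FPKM in NICD2 and 94.66, 80.83 and 83.51 FPKM in wild type (log2 fold change 0.75 ± 0.10, limma adjusted p = 0.00229). Papss1, which makes the sulfate donor PAPS, rose by 0.23 (adjusted p = 0.0464), a call absent in 8 of 11 alternative fits (adjusted p up to 0.177). Anpep, the aminopeptidase of the proximal brush border, and the methyltransferase Inmt fell by 0.41 and 0.58 on the log2 scale (adjusted p = 0.00973 and 0.0367), and Inmt was not called in 6 of the 11 (adjusted p up to 0.102).

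**Figure D5:**
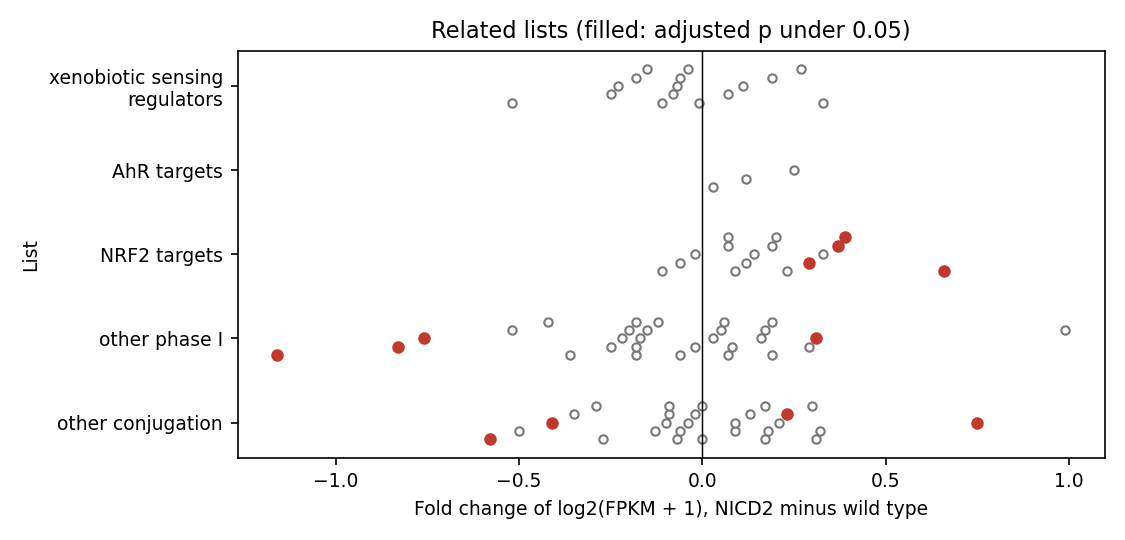
Fold change of log2(FPKM + 1), NICD2 minus wild type, of each tested gene in the 5 related lists; filled points were called at an adjusted p under 0.05. The called NRF2 targets lie between 0.29 and 0.66, and no regulator or AhR target is filled.

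In the authors' deposited table, a DEGseq comparison of the groups, 35 members had a q under 0.05, 18 higher and 17 lower in NICD2. Of the 18724 genes the authors' deposited table gives a q, 48.9% were under 0.05.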

How the data were processed

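RNA from flash-frozen kidneys was made into Illumina TruSeq libraries, per the labels' protocols, in 3 samples per genotype. The FPKM values were computed by the authors and deposited to 2 decimals, as were mean FPKM per group, a log2 fold change and a p-value and q-value from DEGseq, per the file headers; transcript length is another deposited value. Bowtie 0.12.2 and mm8 are named in the submitters' processing notes, but the table gives positions on GRCm38. The sources used here do not name the program that made the FPKM or say how it treated strand and shared reads.

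Genes reaching 1 FPKM in 3 or more libraries were fitted on log2(FPKM + 1) with limma 3.58.1 (R 4.3.3, mean-variance trend), two-sided, with Benjamini-Hochberg adjustment over 13765 genes. The fit was tested on simulated data with planted changes of 1 and 2 on the log2 scale, in genes above 2 on that scale in wild type. Smaller changes, and members of low wild type level, were not covered by it. Depth was estimated as the library size that put most low values of short genes with 1 transcript on whole fragments; 75.2% to 77.7% fell within 0.15 of a whole number (chance: 30.0%). Shared sequence was counted, in place of a planned protein comparison, as 50-base stretches in GENCODE M21 transcripts. Members and lists were chosen with earlier results of these data known. Genes named are the called members, the 2 most abundant of each family, those next to the level minimum and up to 4 per related list with the smallest p; others were named after their values were seen. Fits were repeated with a pseudocount of 0.1, without the filter, after 2 rescalings (median ratio, upper quartile), blocked by replicate number, and lacking each library in turn. The table's 27 columns on single pairs of libraries were left aside.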

Additional observations from a re-analysis of the deposited data

How the results depend on the processing

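Of the 10 called members, 6 (Ces1d, Ces1e, Ces5a, Gsta3, Ugt8a and Cyp2s1) kept direction and call in all 11 alternatives, and none of the 10 changed sign. The count of members higher was 7, and 5 to 8 with a library left out; the count lower was 3, and 1 to 2 with a library left out and 1 with no filter on low values. Over all genes 1210 were called, and 624 to 985 with a library left out (the lowest counts were 624, 729 and 780, lacking wild type replicate 2, NICD2 replicate 1 and wild type replicate 3 in that order). In the related lists, NRF2 targets higher ran from 1 to 5, other phase I genes higher from 0 to 1, other conjugation genes higher from 1 to 3 and lower from 1 to 2 over the alternatives. Leaving out a library turned the sign of 4 uncalled members, whose fold changes then ran from -0.06 to 0.18 (Cyp2d26), -0.11 to 0.10 (Cyp4a31), -0.13 to 0.07 (Gstp1) and -0.07 to 0.20 (Sult1d1); the cause was not tested. With the replicate number as a block, 6 members were higher and 2 lower, and 1055 genes were called. Libraries of the same number correlated at -0.0327, 0.059 and -0.0453 in their deviations from the group means. Those of different numbers ran from -0.253 to 0.246. With 3 libraries per group, these values cannot settle whether the numbers pair the samples. Without NICD2 replicate 3, the library with no Y-linked transcripts, 6 of the 10 calls were kept. The same 6 were those kept without NICD2 replicate 1, wild type replicate 1 or wild type replicate 2. Depth limits the low members most, such as Ces5a and Gsta1, whose values rest on 0 to 84 and 6 to 21 estimated fragments.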
